A study of Mus musculus with 15 samples.

Results

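The comparison is between 3 arrays of mouse prostate epithelial cell lines that overexpress NeuT and 3 arrays of lines that overexpress Ras, out of 15 arrays in the series. The arrays were taken by their titles, replicates 1 to 3 of each group, and no control array entered the contrast. All 21797 probe sets assigned to 1 gene, out of all those in the deposited table, were tested, and 19946 genes had at least 1 of them. NeuT is the oncogenic, constantly active version of Erbb2, a growth factor receptor with kinase activity, and Ras, in the labels the ha-ras gene, is a membrane-bound small GTPase. The remaining 9 arrays, 3 each, were Myc and Src lines and untransduced primary prostate epithelial cultures (control), which grew in another medium until the night before collection. All cells came from the ventral prostate of FVB mice. NeuT and Ras lines alike were described as stable cancer lines, were kept in DMEM with 10% serum and were collected untreated at 85 to 90% confluence. The design text gives each oncogene 3 lines, but no label says how many animals, transductions or clones these came from, so p-values measure the spread between these samples, and a difference may be a trait of the lines as well as of the oncogene. Values are log2 expression, and differences are NeuT minus Ras on the log2 scale with their SE from limma.

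As background, ligand-activated or mutant ERBB2 signals through several routes at once, among them the Ras to ERK cascade, PI3K and AKT, and its partner receptor ERBB3. Activated Ras enters that network further down and drives the ERK and PI3K arms without a receptor. Epithelial cells hold together through E-cadherin, desmosomes and tight junctions under the control of factors such as GRHL2 and ESRP1, and the ZEB, SNAI and PRRX factors that direct the mesenchymal transition repress that state.

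The precision rests on 3 arrays a group. Array medians over all probe sets were 6.20 to 6.23 in NeuT and 6.23 to 6.32 in Ras. NeuT arrays were closer to each other than Ras arrays: pairs of NeuT arrays had 6 to 26 genes at least 2-fold apart, pairs of Ras arrays 185 to 332, and the median SD over genes was 0.09 in NeuT and 0.14 in Ras. Ras array 3 carried an interferon response of its own, so every comparison was repeated without it. The deposited values hold no array background. A level under 6.49, the median of all single-gene probe sets over all arrays, may lie near it. The size of a difference with such a level on one side is therefore unsure. Of the other groups, control array 3 carried kidney tubule transcripts, and Umod, the kidney protein uromodulin, had a control level of 7.47 ± 3.08 (SD, n = 3).

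Between the NeuT and Ras lines, 1168 genes (5.86% of those tested) differed by 2-fold or more with an adjusted p under 0.05 (limma, Benjamini-Hochberg), which is what called means here. Of these, 654 (3.28% of all genes) were higher and 514 (2.58%) lower in NeuT. At least 8-fold differences were found for 63 genes higher and 62 genes lower in NeuT. Without the fold minimum, 25.1% of all genes passed, 15.1% higher and 9.98% lower in NeuT, at a median difference over all genes of 0.01. By probe set, 1265 (5.8%) were called, 697 (3.2%) higher and 568 (2.61%) lower. Without Ras array 3, 1213 genes (6.08%) were called, 709 (3.55%) higher and 504 (2.53%) lower, and without the fold minimum 24.5% passed, 15% higher and 9.53% lower. In all, 1088 genes, 627 higher and 461 lower, were called in the same direction both times. The NeuT and Ras arrays did not overlap in any of these 1088 genes, which adds no support because the same arrays gave the calls. Where arrays of named genes are said below not to overlap or not to reach each other, this describes the values and is likewise no further support.

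**Figure D1:**
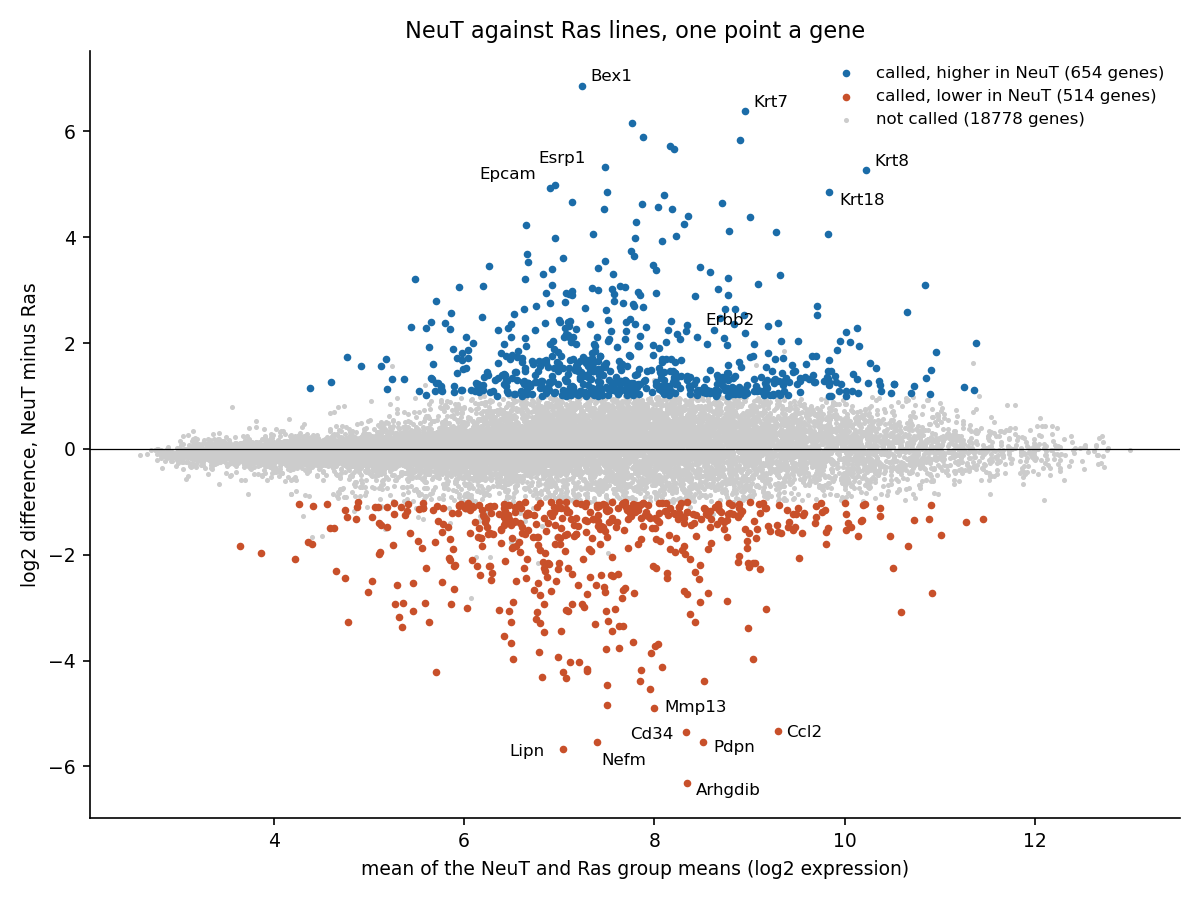
Each point is a gene, with the mean of the 2 group means on the x axis (log2 expression) and the NeuT minus Ras difference (log2) on the y axis. Blue points are the 654 genes called higher in NeuT, orange points the 514 called lower, and grey points the genes not called. Krt7, Krt8 and Epcam lie near the top and Arhgdib, Pdpn and Ccl2 near the bottom.

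The levels in the other 3 groups show on which side a called gene was out of the ordinary. Among the 654 genes higher in NeuT, the NeuT arrays were above all other 12 arrays of the series in 234, and the Ras arrays were below all others in 360. Both held in 81 of these genes and neither in 141. Among the 514 genes lower in NeuT, the NeuT arrays were below all others in 71 and the Ras arrays above all others in 337. Over all genes tested, NeuT arrays stood outside the other 12 in 1195 (5.99%) and Ras arrays in 2175 (10.9%). Control, Myc and Src arrays stood outside in 2060, 1295 and 1204 genes. Called genes were picked by the difference between NeuT and Ras, which by itself raises their counts.

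Erbb2 was read first as a check of the NeuT label. It was at 9.13, 9.88 and 9.50 in the NeuT arrays, against 7.43, 7.41 and 7.33 in the Ras arrays (2.11 ± 0.17, adjusted p = 0.000102). The lowest NeuT array lay above the highest Ras array. The probe set cannot tell the transduced copy from the mouse gene. Hras had no probe set of its own and is not analysed here, so the Ras label rests on the titles alone. Nras, a gene of the same family, was at 10.89 ± 0.08 in NeuT and 10.64 ± 0.05 in Ras (SD, n = 3 each, limma adjusted p = 0.059).

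Of 15 measured ERBB receptors, ligands and adaptors 7 were higher in NeuT, 1 was lower and 7 did not pass, at a median difference of 0.35. Erbb3, the partner with little kinase activity that couples ERBB2 to PI3K, was at 8.21, 8.42 and 8.35 in the NeuT arrays, against 6.32, 6.0 and 5.38 in the Ras arrays (2.42 ± 0.21, adjusted p = 0.000153). Egfr, the EGF receptor, was at 8.01, 8.16 and 8.10 in the NeuT arrays, against 6.30, 6.86 and 6.25 in the Ras arrays (1.62 ± 0.16). Grb7, an adaptor that binds ERBB2 and is its neighbour in the genome, differed by 1.51 ± 0.12. The arrays of the groups did not overlap for any of the 3 genes. Egfr in NeuT, at a mean of 8.09, was itself below the control mean of 9.59. The ligand Ereg, epiregulin, was the 1 member lower in NeuT (-0.64 ± 0.16, adjusted p = 0.0227), and without Ras array 3 it had an adjusted p of 0.0657.

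Epithelial genes separated the lines. Epcam, E-cadherin (Cdh1), the simple keratins, claudins and epithelial regulators were higher in NeuT, with log2 differences from 1.95 for Krt19 to 6.38 for Krt7 among the genes of the plot of epithelial genes that passed. For Epcam, Cdh1, Krt7 and Krt8 the NeuT means were 9.38, 10.45, 12.14 and 12.86, against control means of 9.67, 11.16, 12.08 and 12.88. Of these, Cdh1 lay furthest below its control mean. The control means include the control array with kidney tubule transcripts. Of 29 measured epithelial transcription and splicing regulators 20 were higher in NeuT and 0 lower, with a median difference of 1.05. Of 24 tight junction genes 14 were higher and 0 lower (median 0.82), and of 26 adherens junction and desmosome genes 15 were higher and 2 lower (median 0.64). The shares over all genes were 15.1% higher and 9.98% lower.

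Epcam, the epithelial adhesion molecule used to mark carcinoma cells, was at 9.33, 9.38 and 9.42 in the NeuT arrays, against 4.46, 4.47 and 4.38 in the Ras arrays (4.94 ± 0.08, adjusted p = 4.01e-08). Cdh1 was at 10.34, 10.51 and 10.50 in the NeuT arrays, against 5.88, 6.14 and 5.71 in the Ras arrays (4.54 ± 0.12, adjusted p = 4.21e-07). Krt7, a keratin of simple epithelium, was at 12.01, 12.24 and 12.16 in the NeuT arrays, against 5.75, 5.76 and 5.77 in the Ras arrays (6.38 ± 0.09, adjusted p = 3.96e-08). The groups did not overlap in these 3 genes, and the Ras values lay under the median of all values. Krt8, the luminal keratin of prostate, was at 12.81, 12.87 and 12.88 in the NeuT arrays, against 7.72, 7.73 and 7.32 in the Ras arrays (5.26 ± 0.12). Its partner Krt18 was at 12.16, 12.33 and 12.27 in the NeuT arrays, against 9.83, 6.58 and 5.80 in the Ras arrays (4.85 ± 0.88, adjusted p = 0.00502). Ras array 1 held far more Krt18 than the other Ras arrays, and the Krt18 difference has a wide error. Krt19 stayed at a substantial level in both, at 11.12 ± 0.26 in NeuT and 9.17 ± 0.64 in Ras (SD, n = 3 each), and was higher in NeuT by 1.95 ± 0.29.

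**Figure D2:**
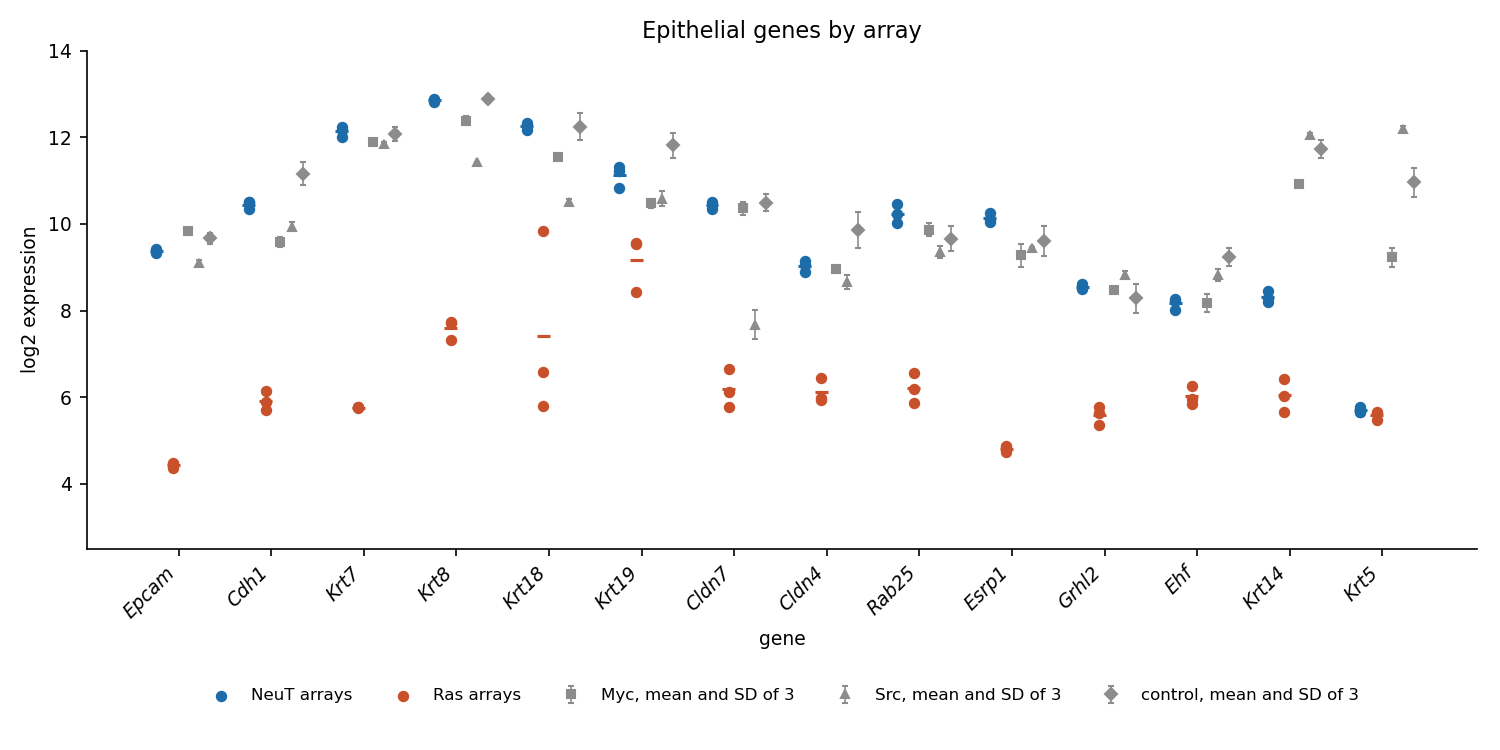
Log2 expression of 14 epithelial genes, with 1 blue point for each NeuT array and 1 orange point for each Ras array and short bars at their means. Grey symbols are the means and SDs of the Myc, Src and control groups. The NeuT points lie above the Ras points in every gene shown except Krt5, which is low in both and high in the Myc, Src and control groups.

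Regulators of the epithelial state differed in the same direction. Esrp1, which directs epithelial splicing, was at 10.13, 10.05 and 10.26 in the NeuT arrays, against 4.86, 4.72 and 4.86 in the Ras arrays (5.33 ± 0.09). Grhl2, which activates Cdh1 and claudin genes, was at 8.53, 8.49 and 8.60 in the NeuT arrays, against 5.64, 5.36 and 5.77 in the Ras arrays (2.95 ± 0.11), and the epithelial ETS factor Ehf, named after its values were seen, differed by 2.15 ± 0.13. The trafficking genes Rab25 (4.03 ± 0.18), a Rab GTPase of apical recycling, and Mal2 (4.29 ± 0.13), which serves transcytosis, were higher in NeuT, as was the membrane protease St14, matriptase (3.30 ± 0.10). Regulators that did not pass included Grhl1 at 5.63 ± 0.06 in NeuT and 5.62 ± 0.26 in Ras (SD, n = 3 each, limma adjusted p = 0.964) and Elf5 at 5.37 ± 0.06 in NeuT and 5.38 ± 0.09 in Ras (SD, n = 3 each, limma adjusted p = 0.957), both also named after their values were seen.

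Among junction genes, Cldn7 was at 10.34, 10.44 and 10.50 in the NeuT arrays, against 5.78, 6.66 and 6.12 in the Ras arrays (4.24 ± 0.20). The claudins Cldn1 (3.53 ± 0.22), Cldn6 (3.24 ± 0.12) and Cldn4 (2.92 ± 0.14) and Marveld2, the tricellulin of junction corners (2.66 ± 0.13), were also higher in NeuT. Jup, plakoglobin of desmosomes and adherens junctions, differed by 2.08 ± 0.10 and the cadherins Cdh3 and Cdh6 by 2.04 ± 0.16 and 2.39 ± 0.15. N-cadherin (Cdh2), the cadherin of mesenchymal and neural cells, went the other way, at 8.13, 8.05 and 7.95 in the NeuT arrays, against 10.07, 9.90 and 9.75 in the Ras arrays (-1.86 ± 0.10). Cdh2 in NeuT, with a mean of 8.04, was nevertheless above the Myc, Src and control means, which were 5.81, 5.93 and 6.13. Dsp, desmoplakin, named after its values were seen, was at 6.82, 6.79 and 8.65 in the Ras arrays, so that array 3 stood above the other Ras arrays, and the difference was 2.64 ± 0.44 with it and 3.25 ± 0.09 without it.

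The promoters of Epcam, Krt7 and Krt8 are shown because these genes carry the epithelial difference and each holds the E-box CACCTG, the letters that ZEB and SNAI repressors are known to bind. The RefSeq windows on GRCm38.p6 run from 250 bases before to 50 bases after the gene start, 5′ to 3′ on the gene's strand, with matches to CACCTG on either strand in capitals.
Epcam, chr17:87635729-87636028, plus strand: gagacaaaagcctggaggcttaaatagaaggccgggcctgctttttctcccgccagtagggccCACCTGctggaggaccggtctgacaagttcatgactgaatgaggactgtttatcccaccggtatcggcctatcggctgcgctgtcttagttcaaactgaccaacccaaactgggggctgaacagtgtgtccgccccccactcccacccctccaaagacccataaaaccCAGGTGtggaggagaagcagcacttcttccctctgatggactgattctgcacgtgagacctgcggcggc
Krt7, chr15:101412153-101412452, plus strand: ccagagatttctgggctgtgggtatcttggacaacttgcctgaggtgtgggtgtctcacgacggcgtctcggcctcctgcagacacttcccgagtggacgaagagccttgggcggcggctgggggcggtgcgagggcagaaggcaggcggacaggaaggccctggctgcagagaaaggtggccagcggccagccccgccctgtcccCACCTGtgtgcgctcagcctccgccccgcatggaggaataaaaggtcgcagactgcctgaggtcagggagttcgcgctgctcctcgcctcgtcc
Krt8, chr15:102004293-102004592, minus strand: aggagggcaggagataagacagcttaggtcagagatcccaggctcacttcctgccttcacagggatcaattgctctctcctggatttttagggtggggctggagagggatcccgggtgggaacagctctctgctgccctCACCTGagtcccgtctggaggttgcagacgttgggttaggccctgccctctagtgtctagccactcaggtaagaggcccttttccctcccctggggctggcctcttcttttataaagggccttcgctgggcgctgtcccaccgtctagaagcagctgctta
Epcam has matches at -187 to -182 and at -19 to -14 from the start, Krt7 at -44 to -39 and Krt8 at -111 to -106. The motif was found in 20.2% of all 32851 promoters and in 22.6% of the 27025 genes that have one. It was found in 7 of the 11 genes with a promoter entry among the 15 highest in NeuT (63.6%) and in 2 of 12 among the 15 lowest (16.7%). Of 16 epithelial regulators and 19 tight junction genes with an entry, 10 (62.5%) and 10 (52.6%) held it, as did 3 of 8 adherens junction and desmosome genes (37.5%). In the protease, cytokine and cholesterol lists the shares were 25.0%, 28.1% and 25.0%. A match is a run of letters and not evidence of binding, and these gene sets were chosen with the results known.

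Basal and luminal prostate genes were described in the same way. Of 19 basal genes 7 were higher in NeuT and 0 lower (36.8% passing against 25.1% of all genes), with a median of 0.16. Without dim probe sets (those with a mean under 6.49 over the NeuT and Ras arrays) it was 1.55. That filter changes the members, since a gene can be kept through the group where it is high. Of the basal genes 10 reached 6.49 in NeuT and 4 in Ras, so the filtered median adds no support. Krt14, a basal keratin, was at 8.19, 8.29 and 8.46 in the NeuT arrays, against 6.43, 5.67 and 6.02 in the Ras arrays (2.27 ± 0.18), yet the NeuT mean was below the Myc, Src and control means, which were 10.93, 12.06 and 11.73. Lama3 and Lamb3, chains of the hemidesmosomal laminin, differed by 2.75 ± 0.22 and 1.57 ± 0.08, and Itgb4, the integrin of hemidesmosomes, by 2.42 ± 0.24. The defining basal markers Krt5 (5.70 ± 0.07 in NeuT and 5.59 ± 0.11 in Ras) and Trp63 (6.19 ± 0.05 in NeuT and 6.20 ± 0.14 in Ras) were low in both groups and did not pass (SD, n = 3 each, limma adjusted p = 0.458 and 0.97). The Myc, Src and control means of Krt5 were 9.23, 12.19 and 10.96, so both NeuT and Ras lines stood far below the other groups.

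Of 23 luminal and secretory prostate genes 9 were higher and 3 lower in NeuT, with a median of 0.27, or 2.01 without dim probe sets. Here too the filter changed the members, of which 11 reached 6.49 in NeuT and 8 in Ras. Besides the keratins, Prom1, a membrane protein of progenitor and luminal cells, differed by 2.70 ± 0.10, Sox9, a factor of prostate epithelial growth, by 2.08 ± 0.09, Hoxb13, the prostate homeobox gene, by 1.09 ± 0.13 and Foxa1, the androgen receptor's pioneer factor, by 1.02 ± 0.08. Fkbp5, a known androgen receptor target, was lower in NeuT, at 6.85, 6.89 and 6.83 in the NeuT arrays, against 8.25, 8.50 and 8.25 in the Ras arrays (-1.48 ± 0.10). The secretory markers Pbsn, probasin (3.10 ± 0.05 in NeuT and 3.14 ± 0.05 in Ras), and Msmb (4.77 ± 0.08 in NeuT and 4.60 ± 0.23 in Ras) were low in both groups and did not pass (SD, n = 3 each, limma adjusted p = 0.792 and 0.394). The epithelial markers Epcam, Cdh1, Krt8, Krt18 and Krt19 were thus present in every NeuT array, whereas the Ras arrays, labelled epithelial too, had Epcam and Cdh1 below 6.49 and Krt8 and Krt19 above it.

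Genes lower in NeuT included transcription factors and markers of mesenchyme. Among 24 mesenchymal transition factors 8 were lower and 5 higher in NeuT, with a median of -0.01, or -0.54 without dim probe sets. Zeb1 and Zeb2, repressors of Cdh1, were at 6.32, 6.47 and 6.28 in the NeuT arrays, against 8.81, 8.52 and 8.95 in the Ras arrays (-2.40 ± 0.12), and at 6.47, 6.10 and 6.08 in the NeuT arrays, against 8.26, 8.25 and 8.36 in the Ras arrays (-2.07 ± 0.12). Prrx1, a homeobox factor of mesenchyme, was at 5.77, 5.65 and 5.55 in the NeuT arrays, against 9.39, 10.71 and 10.04 in the Ras arrays (-4.39 ± 0.28, adjusted p = 3.04e-05). No NeuT array reached a Ras array in any of the 3. Of the Snai factors, named after their values were seen, Snai2 differed by -1.50 ± 0.15, and Snai1 was at 7.16 ± 0.11 in NeuT and 7.12 ± 0.17 in Ras (SD, n = 3 each, limma adjusted p = 0.877). The factor Runx1 was higher in NeuT (1.68 ± 0.15).

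Among 30 mesenchymal and cytoskeletal genes 7 were higher and 9 lower in NeuT, with a median of -0.13 that turned to 0.69 without dim probe sets. S100a4, a calcium-binding protein of motile cells, differed by -2.73 ± 0.13, and Vim, the intermediate filament vimentin, by -1.32 ± 0.10, at 10.72, 10.91 and 10.74 in the NeuT arrays, against 12.19, 11.94 and 12.19 in the Ras arrays. Vim in NeuT was also high, above the Myc, Src and control means, which were 7.55, 9.38 and 9.12. Tnc, the matrix protein tenascin-C, and Cd44, the hyaluronan receptor, were higher in NeuT, by 4.38 ± 0.16 and 1.84 ± 0.09. Fn1, fibronectin, counted among mesenchymal genes, was at 12.32, 12.48 and 12.37 in the NeuT arrays, against 9.19, 10.14 and 8.55 in the Ras arrays (3.10 ± 0.34). Tnc, Cd44 and Fn1 are often counted as mesenchymal, and here they were higher in the lines with more Cdh1. Vim and Fn1 were named after their values were seen.

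**Figure D3:**
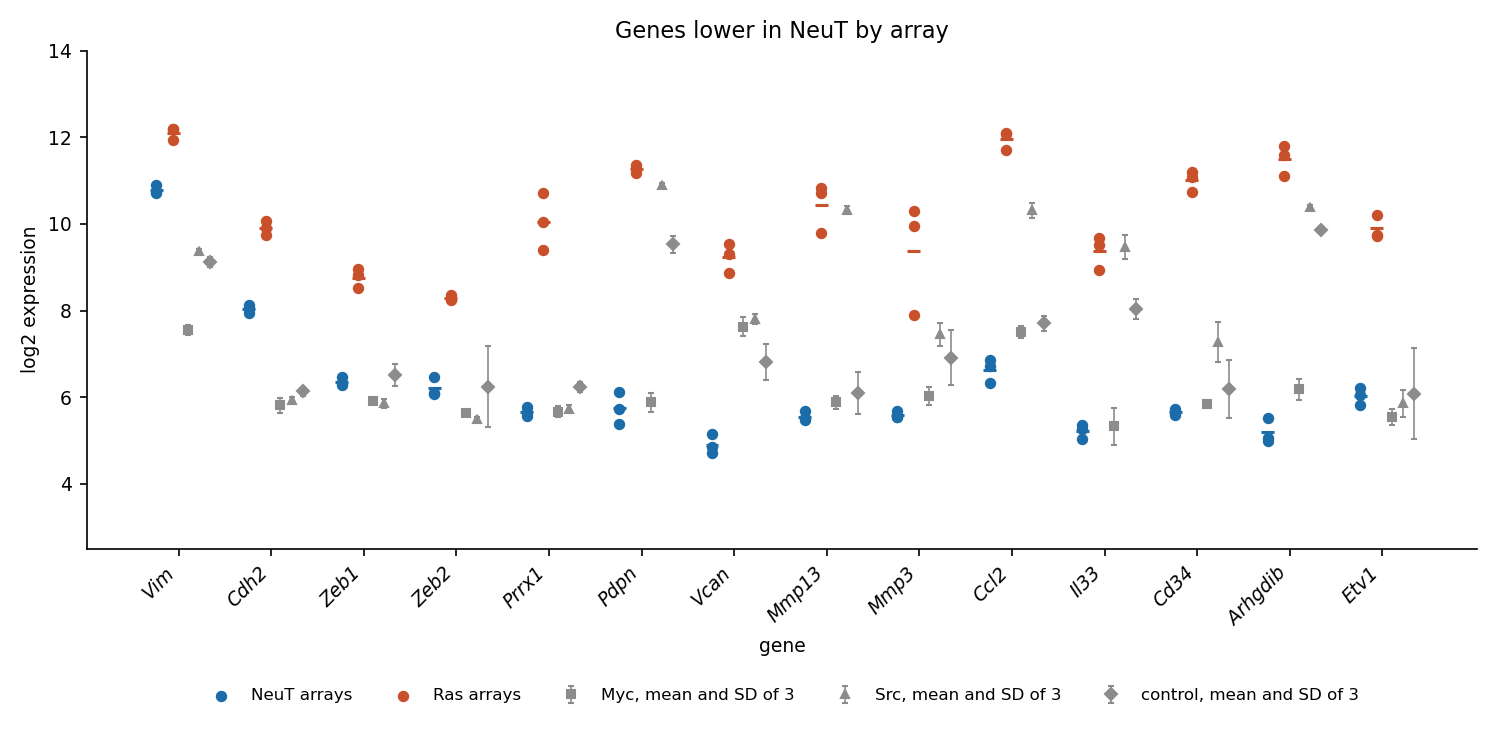
Log2 expression of 14 genes lower in NeuT, with 1 blue point for each NeuT array, 1 orange point for each Ras array and short bars at their means. Grey symbols are the means and SDs of the Myc, Src and control groups. The orange points lie above the blue points in every gene shown, and the Src mean reaches the Ras points for Mmp13 and Il33.

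Several of the 15 genes lowest in NeuT are known from blood, endothelial or neural cells. Arhgdib, a GDP-dissociation inhibitor of blood cells, was at 5.05, 5.0 and 5.52 in the NeuT arrays, against 11.80, 11.11 and 11.59 in the Ras arrays (-6.31 ± 0.20, adjusted p = 9.44e-07). Cd34, a sialomucin of haematopoietic progenitors and endothelium, was at 5.73, 5.65 and 5.59 in the NeuT arrays, against 10.74, 11.20 and 11.09 in the Ras arrays (-5.36 ± 0.13, adjusted p = 2.69e-07). Pdpn, podoplanin of lymphatic endothelium and migrating epithelium, was at 5.73, 6.12 and 5.38 in the NeuT arrays, against 11.35, 11.18 and 11.30 in the Ras arrays (-5.54 ± 0.17). The groups lay far apart in each of the 3. For Arhgdib and Pdpn the control means, 9.87 and 9.54, lay between the NeuT and Ras arrays and nearer to the Ras arrays, while the control mean of Cd34, 6.19, was nearer to the NeuT arrays. Calcrl, the receptor of adrenomedullin, differed by -4.84 ± 0.16, Nefm, the medium neurofilament, by -5.55 ± 0.31, and C3ar1, the receptor of complement C3a, by -4.39 ± 0.16. Lipn, a lipase of the epidermis, differed by -5.68 ± 0.31, Qpct, glutaminyl cyclase, by -4.32 ± 0.31, Nid1, nidogen of basement membranes, by -4.54 ± 0.15, and Vcan, a matrix proteoglycan, by -4.33 ± 0.19. Marchf11, a ubiquitin ligase, differed by -4.22 ± 0.42 on 1 probe set, while its other probe set gave 4.64 in NeuT and 4.60 in Ras and did not pass.

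Lists of markers of other cell types were read beside these genes, against the 15.1% higher and 9.98% lower over all genes. Of 19 leukocyte markers 0 passed limma in either direction, and their summed log2 level was 105.3 to 107.5 in NeuT arrays and 106.1 to 106.7 in Ras arrays. Ptprc, the leukocyte antigen CD45, was at 4.84 ± 0.06 in NeuT and 4.83 ± 0.18 in Ras (SD, n = 3 each). Among 18 endothelial markers 1 was higher and 2 lower in NeuT, with sums of 104.4 to 105.1 in NeuT and 105.5 to 106.4 in Ras, and Pecam1 was at 5.54 ± 0.03 in NeuT and 5.54 ± 0.07 in Ras. Among 15 haematopoietic genes 1 was higher and 2 lower, with sums of 96.9 to 97.4 in NeuT and 100.1 to 102.9 in Ras. The fibroblast list had 7 of 15 members lower and 0 higher in NeuT, with a median of -0.40, or -0.16 without Ras array 2. Its summed log2 level was 84.7 to 85.1 in NeuT arrays and 94.4 to 98.6 in Ras arrays. The matrix proteoglycan Dcn, decorin, was at 5.47, 5.43 and 5.38 in the NeuT arrays, against 8.04, 8.96 and 7.52 in the Ras arrays (-2.75 ± 0.31), while Col1a1 (7.08 ± 0.02 in NeuT and 7.05 ± 0.10 in Ras) and Pdgfra (6.70 ± 0.04 in NeuT and 6.52 ± 0.17 in Ras) did not pass. The part of other cells in these differences was not tested, and in bulk RNA fewer cells of a type and less RNA per cell cannot be told apart.

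Matrix proteases were split between the lines. Of 33 proteases and inhibitors 9 were higher and 9 lower in NeuT, with a median of -0.07, or 0.01 without dim probe sets. Mmp13, an interstitial collagenase, was at 5.51, 5.46 and 5.68 in the NeuT arrays, against 10.71, 9.79 and 10.83 in the Ras arrays (-4.90 ± 0.25, adjusted p = 9.57e-06). Mmp3, stromelysin-1, was at 5.69, 5.53 and 5.55 in the NeuT arrays, against 9.94, 10.29 and 7.91 in the Ras arrays (-3.79 ± 0.53, adjusted p = 0.00152). Ras arrays 1 and 2 were higher in Mmp3 than Ras array 3, and without it the difference was -4.53 ± 0.12. Mmp10, stromelysin-2 (-2.73 ± 0.27), and Timp1, an inhibitor of these proteases (-1.25 ± 0.12), were also lower in NeuT. Mmp3, Mmp10 and Timp1 were named after their values were seen.

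Members of the list that were higher in NeuT included Mme, Cpa4, Serpinb5 and Adam12. Mme, the membrane peptidase neprilysin of prostate epithelium, was at 10.95, 10.90 and 10.65 in the NeuT arrays, against 4.81, 4.96 and 5.02 in the Ras arrays (5.90 ± 0.11, adjusted p = 5.47e-08). Cpa4, a carboxypeptidase, was at 10.94, 11.10 and 11.05 in the NeuT arrays, against 5.14, 5.27 and 5.71 in the Ras arrays (5.66 ± 0.15). NeuT arrays were far above Ras arrays in both, and the Myc and Src means of Mme, 5.74 and 5.04, were low as well. Serpinb5, the serpin maspin of epithelial cells, differed by 4.98 ± 0.11, and Adam12, a membrane metalloprotease, by 3.02 ± 0.17.

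The promoters of Mmp13 and Mmp3 are shown because both genes were far lower in NeuT and each holds the AP-1 motif TGANTCA, the letters to which FOS and JUN dimers bind. The windows are those described for the epithelial promoters, with the match in capitals.
Mmp13, chr9:7272264-7272563, plus strand: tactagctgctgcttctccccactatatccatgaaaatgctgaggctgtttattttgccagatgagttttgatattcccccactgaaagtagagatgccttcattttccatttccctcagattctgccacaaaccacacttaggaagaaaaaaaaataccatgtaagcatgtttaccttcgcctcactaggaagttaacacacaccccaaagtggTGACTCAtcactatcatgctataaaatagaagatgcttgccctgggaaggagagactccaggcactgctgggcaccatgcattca
Mmp3, chr9:7445572-7445871, plus strand: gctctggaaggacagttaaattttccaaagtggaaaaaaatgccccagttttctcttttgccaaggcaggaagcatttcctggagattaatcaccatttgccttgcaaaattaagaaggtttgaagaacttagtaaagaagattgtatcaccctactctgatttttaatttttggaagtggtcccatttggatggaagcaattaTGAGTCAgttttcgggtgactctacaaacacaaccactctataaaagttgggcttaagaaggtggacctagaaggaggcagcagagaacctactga
The matches lie at -35 to -29 in Mmp13 and at -46 to -40 in Mmp3. The motif, which reads the same on both strands, was in 7.81% of all promoters and in 11 of the 24 matrix proteases and inhibitors with an entry (45.8%). It was in 8.97% of genes with a promoter, in 4 of 11 among the 15 highest in NeuT (36.4%) and in 3 of 12 among the 15 lowest (25.0%). Both shares were above that of all genes with a promoter, but they rest on few genes. These sets were chosen with the results known, and a match is not evidence of binding.

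Of 17 AP-1 and immediate early genes 7 were higher in NeuT and 0 lower, with a median of 0.33. Atf3, a stress-induced partner of JUN, differed by 1.28 ± 0.09, the zinc finger factor Klf6 by 1.26 ± 0.12 and the antiproliferative Btg2 by 1.25 ± 0.13.

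Integrins and matrix genes also differed by member. Among 19 integrins 5 were higher and 4 lower in NeuT, and without NeuT array 1 the lower ones numbered 2. Itgb6, the epithelial partner of the alpha v chain, was at 8.81, 8.42 and 8.64 in the NeuT arrays, against 5.04, 5.33 and 5.29 in the Ras arrays (3.40 ± 0.13), and Itga2 of the collagen receptor differed by 2.04 ± 0.14, whereas Itgb7, a leukocyte integrin chain, was lower in NeuT (-1.62 ± 0.15). Among 46 collagens and matrix genes 5 were higher and 8 lower, 28.3% against 25.1% of all genes. Thbs1, thrombospondin-1, and Agrn, agrin, were higher in NeuT by 2.91 ± 0.23 and 1.40 ± 0.09.

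Inflammatory genes showed opposite sides for related cytokines. Il1a, interleukin 1 alpha, was at 10.86, 10.86 and 10.81 in the NeuT arrays, against 4.69, 4.36 and 5.03 in the Ras arrays (6.15 ± 0.16, adjusted p = 3.27e-07). Il33, the nuclear alarmin of the same family, was at 5.36, 5.04 and 5.25 in the NeuT arrays, against 9.67, 8.94 and 9.51 in the Ras arrays (-4.15 ± 0.18, adjusted p = 4.75e-06). Il1a was thus high in NeuT and at a low level in Ras, and Il33 the reverse, with no overlap of arrays. Of 17 interleukin 1 family genes 3 were higher and 6 lower in NeuT (median -0.14). Il1rl2, the receptor of interleukin 36, differed by -2.54 ± 0.26, the cytokine Il18 by -1.59 ± 0.23, and the inflammasome sensors Nlrp3 and Aim2 by -1.10 ± 0.10 and -4.46 ± 0.28.

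Of 45 other cytokines, chemokines and receptors 15 were lower and 9 higher in NeuT, with a median of -0.20, or 0.02 without dim probe sets. Ccl2, the chemokine that draws monocytes, was at 6.85, 6.34 and 6.72 in the NeuT arrays, against 12.07, 11.72 and 12.10 in the Ras arrays (-5.32 ± 0.16, adjusted p = 6.9e-07). Ccl20 was at 6.20, 6.16 and 6.37 in the NeuT arrays, against 9.45, 8.74 and 9.01 in the Ras arrays (-2.82 ± 0.17), and Ccl5 differed by -2.20 ± 0.09. In all 3 chemokines every Ras array was above every NeuT array. Il6, named after its values were seen, was at 3.21, 3.11 and 3.22 in the NeuT arrays, against 6.28, 4.52 and 4.98 in the Ras arrays (-2.08 ± 0.38), so that its NeuT level was near the bottom of the scale. The opposite side held Cxcl16, a membrane-bound chemokine, at 9.48, 9.78 and 9.61 in the NeuT arrays, against 6.13, 6.27 and 5.24 in the Ras arrays (3.74 ± 0.25), and Lif, a cytokine of the interleukin 6 family, at 10.26, 10.22 and 10.11 in the NeuT arrays, against 8.08, 7.49 and 7.45 in the Ras arrays (2.52 ± 0.17).

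Interferon response genes depended on Ras array 3. The median level over 32 measured genes was 6.24, 6.09 and 6.15 in NeuT arrays 1 to 3 and 6.17, 6.0 and 8.49 in Ras arrays 1 to 3. In 24 of the 32, Ras array 3 was at least 2-fold above both other Ras arrays. With all 6 arrays 1 gene was lower in NeuT and 0 higher (3.12% passing, median -0.60). Without Ras array 3, 5 were higher and 4 lower (median -0.03).

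The 1 gene that passed with all 6 arrays was Ifit2, an interferon-induced inhibitor of translation, which was at 7.39, 7.23 and 7.22 in the NeuT arrays, against 8.46, 8.30 and 8.82 in the Ras arrays (-1.24 ± 0.14, adjusted p = 0.000452). Its Ras arrays 1 and 2 were also above the NeuT arrays. Rtp4, an interferon-induced chaperone, was at 5.84, 5.66 and 6.23 in the NeuT arrays, against 5.62, 5.37 and 10.95 in the Ras arrays, and its relative in response Ifit3 at 6.41, 6.03 and 6.15 in the NeuT arrays, against 6.43, 6.0 and 10.18 in the Ras arrays. Both had their high value in Ras array 3 alone and did not pass (limma adjusted p = 0.522 and 0.387). Among the 5 genes higher in NeuT without that array were the ubiquitin-like protease Usp18 (0.99 ± 0.16, adjusted p = 0.0053) and the apoptosis factor Xaf1 (1.01 ± 0.13, adjusted p = 0.00196). Rtp4, Ifit3, Usp18 and Xaf1 were named after their values were seen.

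Jak1, the kinase of interferon and interleukin 6 family receptors, was among the genes higher in Ras array 3 than in the other Ras arrays and was chosen after its values were seen. It was at 9.96, 9.74 and 9.89 in the NeuT arrays, against 7.50, 7.06 and 10.29 in the Ras arrays. Ras arrays 1 and 2 were low, and Ras array 3 was above the NeuT arrays. The difference was 1.58 ± 0.72 with all 6 arrays (adjusted p = 0.169) and 2.58 ± 0.15 without Ras array 3 (adjusted p = 8.47e-05). The Myc, Src and control means were 9.38, 9.78 and 10.39. Jak2 was lower in NeuT (-0.96 ± 0.15), and so was the receptor chain Ifnar1 (-0.39 ± 0.09), both named after their values were seen.

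In 15 class I antigen presentation genes 3 were lower in NeuT and 0 higher (median -0.26). B2m, the light chain of class I molecules, was at 11.48, 11.71 and 11.63 in the NeuT arrays, against 12.54, 12.45 and 12.72 in the Ras arrays (-0.96 ± 0.10), and Erap1, a peptide-trimming protease, differed by -1.33 ± 0.28. The median level of the 15 was 6.76, 6.67 and 6.70 in NeuT arrays 1 to 3 and 7.01, 7.01 and 7.66 in Ras arrays 1 to 3. In 2 of the 15, Ras array 3 was at least 2-fold above both other Ras arrays. Without Ras array 3, 3 were still lower in NeuT, at a median difference of -0.14. Lower by 2-fold or more was 1 gene with that array and 0 without it. Among 11 complement genes 2 were lower in NeuT and 0 higher (18.2% passing, also under the share of all genes). C1s1, a protease of the first complement component, was at 4.17, 3.99 and 3.82 in the NeuT arrays, against 6.95, 7.14 and 7.70 in the Ras arrays (-3.27 ± 0.19).

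**Figure D4:**
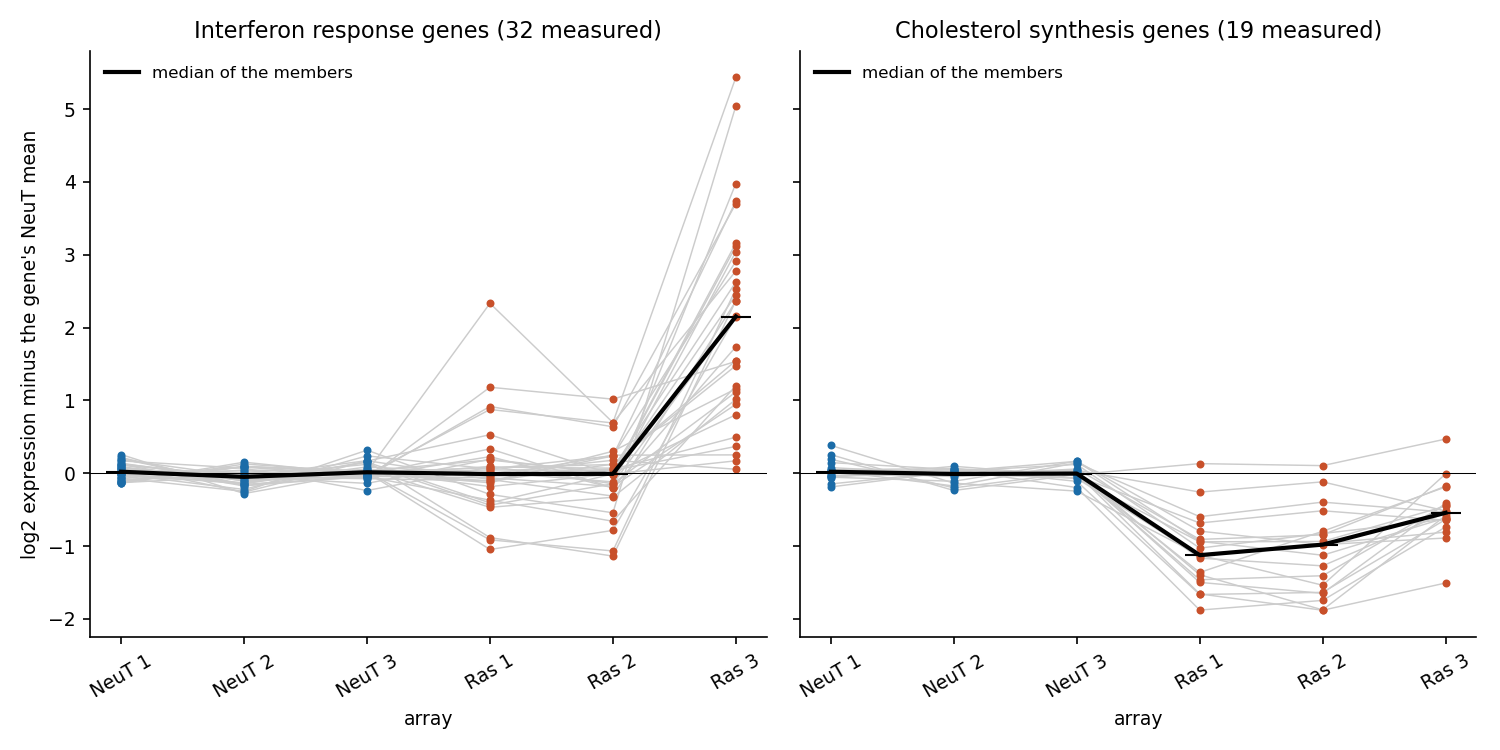
Each grey line is a gene, drawn over the 3 NeuT (blue) and 3 Ras arrays (orange) as log2 expression minus its NeuT mean, with the median of the members in black. The left panel holds 32 interferon response genes, whose median lies high in Ras 3 alone. The right panel holds 19 cholesterol synthesis genes, which in the Ras arrays mostly lie below the NeuT arrays and least so in Ras 3.

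Cholesterol synthesis genes were higher in NeuT in 15 of 19 measured and lower in 0, with a median of 0.89. Without Ras array 3, 17 were higher, at a median of 1.05. Pmvk, phosphomevalonate kinase, was at 8.15, 8.11 and 8.12 in the NeuT arrays, against 6.47, 6.24 and 6.62 in the Ras arrays (1.68 ± 0.11, adjusted p = 2.81e-05). Cyp51, the sterol demethylase, was at 10.32, 10.23 and 9.98 in the NeuT arrays, against 8.30, 8.43 and 9.44 in the Ras arrays (1.45 ± 0.28). Hmgcs1, HMG-CoA synthase, was at 9.85, 9.46 and 9.67 in the NeuT arrays, against 8.16, 8.01 and 9.25 in the Ras arrays (1.19 ± 0.30, adjusted p = 0.0213). Pmvk was low in every Ras array, while Cyp51 and Hmgcs1, both named after their values were seen, were nearer the NeuT level in Ras array 3. Lss, Mvd and Dhcr7 of the same route differed by 0.97 ± 0.10, 0.89 ± 0.10 and 0.62 ± 0.09, and Srebf2, the transcription factor of the pathway, by 0.83 ± 0.12.

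Of 24 fatty acid genes 7 were higher and 3 lower in NeuT (median 0.21). Elovl7, a fatty acid elongase, was at 9.18, 9.09 and 9.15 in the NeuT arrays, against 6.67, 6.67 and 5.88 in the Ras arrays (2.74 ± 0.20), and Fads2, a desaturase, differed by 1.97 ± 0.12, Acly, which makes cytosolic acetyl-CoA, by 1.31 ± 0.16 and Acaca, acetyl-CoA carboxylase, by 1.13 ± 0.12. Fabp4, the fatty acid binding protein of adipocytes and macrophages, was lower in NeuT, at 4.99, 5.01 and 4.56 in the NeuT arrays, against 7.74, 7.86 and 8.78 in the Ras arrays (-3.27 ± 0.27).

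Hypoxia and redox genes leaned the other way. Of 31 glucose, glycolysis and hypoxia genes 9 were lower and 4 higher in NeuT (median -0.11). Egln3, an oxygen-sensing prolyl hydroxylase, was at 5.01, 5.21 and 5.36 in the NeuT arrays, against 9.52, 8.97 and 9.70 in the Ras arrays (-4.20 ± 0.19, adjusted p = 4.89e-06). Ero1a, an oxidase of the endoplasmic reticulum, differed by -1.58 ± 0.14 and Pfkm, a phosphofructokinase, by -1.07 ± 0.13. Egln3 was low in every NeuT array and high in every Ras array. Of 33 glutathione, NRF2 and aldehyde or aldo-keto genes 10 were lower and 4 higher (median -0.14), and without NeuT array 1 these numbered 6 and 1. Nqo1, the quinone reductase and NRF2 target, differed by -1.68 ± 0.14, Gstm1, a glutathione transferase, by -1.80 ± 0.17 and Akr1c18, a steroid-metabolizing aldo-keto reductase, by -2.51 ± 0.19. Aldh2, mitochondrial aldehyde dehydrogenase, was higher in NeuT, at 8.56, 8.53 and 8.49 in the NeuT arrays, against 6.65, 6.38 and 6.43 in the Ras arrays (2.04 ± 0.10).

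The Myc gene itself and most ribosome biogenesis genes were higher in NeuT. Myc, a target of several mitogenic pathways, was at 10.85, 11.03 and 11.02 in the NeuT arrays, against 8.62, 8.72 and 9.45 in the Ras arrays (2.04 ± 0.20, adjusted p = 0.000279). No Ras array reached a NeuT array. Of 13 MYC network genes 3 were higher and 0 lower (23.1% passing against 25.1% of all genes, median 0.20). Of 26 ribosome biogenesis genes 18 were higher and 1 was lower, with a median of 0.73. Mybbp1a, a nucleolar Myb-binding protein, was at 9.93, 10.08 and 10.15 in the NeuT arrays, against 8.47, 8.93 and 8.71 in the Ras arrays (1.35 ± 0.13), and Rrp9 and Nhp2, both small nucleolar ribonucleoprotein components, differed by 1.14 ± 0.09 and 0.93 ± 0.09. Npm1, nucleophosmin, was the 1 lower member (-0.36 ± 0.09, adjusted p = 0.0218). Shmt2, mitochondrial serine hydroxymethyltransferase, was also higher (1.34 ± 0.15), among 23 serine and amino acid genes of which 8 were higher and 2 lower.

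Cell cycle genes were mixed. Of 24 mitosis genes 8 were higher and 2 lower in NeuT (median 0.23), and of 26 DNA replication genes 9 were higher and 4 lower (median 0.15). Leaving out NeuT array 2 left 4 mitosis genes higher, and leaving out NeuT array 3 left 5 replication genes higher. Ccnd1, cyclin D1, which ERK and other mitogenic routes induce, was at 11.59, 11.71 and 11.65 in the NeuT arrays, against 10.32, 9.97 and 10.18 in the Ras arrays (1.49 ± 0.11). Ccnd2 was also higher (1.37 ± 0.19), and Ccne2, a cyclin of the G1 to S step, was lower, at 8.73, 7.86 and 8.38 in the NeuT arrays, against 9.62, 9.12 and 9.58 in the Ras arrays (-1.12 ± 0.22). Of 19 cyclins and CDK inhibitors together 3 were higher and 3 lower, with a median of 0.02 (31.6% passing against 25.1% of all genes).

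Genes known as p53 targets were higher in NeuT in 11 of 20 and lower in 2, with a median of 0.72. Perp, which is also a desmosomal protein, was at 10.38, 10.34 and 10.32 in the NeuT arrays, against 8.52, 8.01 and 8.41 in the Ras arrays (2.03 ± 0.13), and Pmaip1, the death protein NOXA, differed by 1.67 ± 0.16 and Sesn2, a stress-induced sestrin, by 0.83 ± 0.11. Fas, a death receptor, was lower in NeuT (-1.08 ± 0.15). The median level of the list was 8.26, 8.16 and 8.11 in NeuT arrays 1 to 3, against 7.67, 6.87 and 7.52 in Ras arrays 1 to 3.

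Signalling genes close to the transduced proteins were mixed. Of 27 ERK feedback and output genes 12 were higher and 6 lower in NeuT (median 0.22). Etv1, an ETS factor and known ERK output, was at 6.05, 5.82 and 6.22 in the NeuT arrays, against 9.74, 9.73 and 10.21 in the Ras arrays (-3.86 ± 0.16, adjusted p = 2.98e-06), and its second probe set differed by -3.64. Dusp1, a phosphatase of MAP kinases, was at 8.83, 8.68 and 8.93 in the NeuT arrays, against 7.36, 7.26 and 7.25 in the Ras arrays (1.52 ± 0.09). Spred1, an inhibitor of Ras activation, was at 8.78, 8.75 and 8.65 in the NeuT arrays, against 10.06, 10.23 and 10.01 in the Ras arrays (-1.37 ± 0.09). Etv1, Spred1 and Dusp4 (-1.01 ± 0.09), a nuclear phosphatase of ERK, were lower in NeuT, and Dusp1 and the chromatin protein Hmga2 (1.46 ± 0.11) were higher.

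Among 18 PI3K genes 7 were higher and 1 lower in NeuT. Irs1, the docking protein between insulin or IGF receptors and PI3K, was at 9.29, 9.30 and 9.32 in the NeuT arrays, against 6.78, 5.65 and 6.60 in the Ras arrays (2.96 ± 0.26), and its second probe set differed by 2.27. The FOXO factors Foxo1 and Foxo3, which AKT inactivates, were higher by 1.59 ± 0.09 and 1.46 ± 0.14. Among 27 Ras GTPases and regulators 3 were higher and 4 lower (25.9%, near the 25.1% of all genes). Rasa1 and Nf1, GTPase-activating proteins that switch Ras off, differed by -0.77 ± 0.11 and -0.59 ± 0.12.

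Other receptors differed by family. Of 29 further receptor tyrosine kinases and ligands 12 were higher and 4 lower in NeuT. Ddr2, the collagen receptor of mesenchymal cells, was at 6.07, 6.01 and 5.92 in the NeuT arrays, against 9.05, 9.49 and 9.51 in the Ras arrays (-3.35 ± 0.13), and Mertk, a receptor for apoptotic cells, differed by -3.05 ± 0.11. Fgfr1, the FGF receptor of mesenchyme, was lower in NeuT as well (-1.46 ± 0.10), while Fgfbp1, an FGF carrier of epithelial cells, was at 10.86, 10.96 and 10.69 in the NeuT arrays, against 7.09, 6.34 and 6.73 in the Ras arrays (4.12 ± 0.18). Igfbp3, a carrier of IGFs, was at 10.43, 10.56 and 10.51 in the NeuT arrays, against 5.83, 5.38 and 5.91 in the Ras arrays (4.80 ± 0.14), and Epha2 and Efnb2 of the ephrin system were higher by 1.64 ± 0.22 and 1.98 ± 0.10.

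Guidance, NOTCH, WNT and TGF-beta genes are read against the 15.1% higher and 9.98% lower over all genes. Of 36 semaphorins, plexins, netrins, slits and ephrins 16 were higher and 3 lower (median 0.17), or 1 lower without NeuT array 1, and Sema6a, a membrane semaphorin, was at 9.14, 9.33 and 9.20 in the NeuT arrays, against 6.37, 6.20 and 5.90 in the Ras arrays (3.06 ± 0.13). Of 19 NOTCH genes 6 were higher and 0 lower, among them the ligand Jag1 (2.11 ± 0.38) and the target Hes1 (1.27 ± 0.09). Of 35 WNT genes 8 were higher and 1 lower, 25.7% in all and near the 25.1% of all genes, with the ligands Wnt7a and Wnt7b higher by 2.02 ± 0.11 and 1.32 ± 0.10 and the receptor Fzd7 lower (-1.22 ± 0.13). Of 37 TGF-beta and BMP genes 12 were higher and 7 lower (median 0.05). Inhba, the activin subunit, named after its values were seen, was at 11.46, 11.23 and 11.31 in the NeuT arrays, against 7.31, 8.21 and 6.16 in the Ras arrays (4.11 ± 0.43), and the co-receptor Tgfbr3 was lower in NeuT (-1.68 ± 0.13).

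Of 37 Hox genes 8 were higher in NeuT and 0 lower, 21.6% in all against 25.1% of all genes, and Hoxb6 was at 7.21, 7.24 and 7.30 in the NeuT arrays, against 5.97, 5.99 and 5.99 in the Ras arrays (1.27 ± 0.08). The Hox partners Meis1 and Meis2 differed by -1.26 ± 0.08 and -1.74 ± 0.14. Bex1, an X-linked adaptor of neural cells, had the largest difference of the 281 genes named by rule, at 10.47, 10.84 and 10.69 in the NeuT arrays, against 3.76, 3.67 and 3.98 in the Ras arrays (6.86 ± 0.12, adjusted p = 5.47e-08). It was low in the Myc and Src groups too, with means of 4.11 and 4.43, against 10.93 in control. Gap43, the growth cone protein, was at 11.04, 11.14 and 10.92 in the NeuT arrays, against 6.45, 6.87 and 5.85 in the Ras arrays (4.64 ± 0.23), and Shtn1, the axon protein shootin, differed by 4.86 ± 0.12. Of 26 neuronal and neuroendocrine genes 8 were higher and 6 lower in NeuT.

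Of 20 oncofetal and imprinted genes 4 were higher and 3 lower. Igf2bp3, a fetal RNA-binding protein, was at 6.41, 6.54 and 6.64 in the NeuT arrays, against 8.18, 8.80 and 8.75 in the Ras arrays (-2.04 ± 0.17), Lin28b, which blocks let-7 maturation, was at 6.78, 6.49 and 6.68 in the NeuT arrays, against 5.29, 5.26 and 5.08 in the Ras arrays (1.44 ± 0.11) and Peg3, an imprinted zinc finger gene, differed by -1.78 ± 0.12. The oncofetal RNA-binding genes thus lay on opposite sides. Among 26 S100 and serpin genes 11 were lower and 3 higher in NeuT, and without NeuT array 3 the lower ones numbered 7. S100a14, an epithelial S100 protein, was at 11.02 ± 0.04 in NeuT and 5.29 ± 0.11 in Ras (SD, n = 3 each, 5.73 ± 0.09) and Serpinb9b, a serpin of the Serpinb9 group, at 6.24, 5.82 and 6.01 in the NeuT arrays, against 10.74, 9.39 and 10.29 in the Ras arrays (-4.12 ± 0.30). The secreted protein Wfdc2 of glandular epithelium was at 11.81, 11.90 and 11.75 in the NeuT arrays, against 5.82, 6.10 and 6.01 in the Ras arrays (5.84 ± 0.10), and Bst1, a membrane enzyme that consumes NAD, differed by 4.67 ± 0.14.

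**Figure D5:**
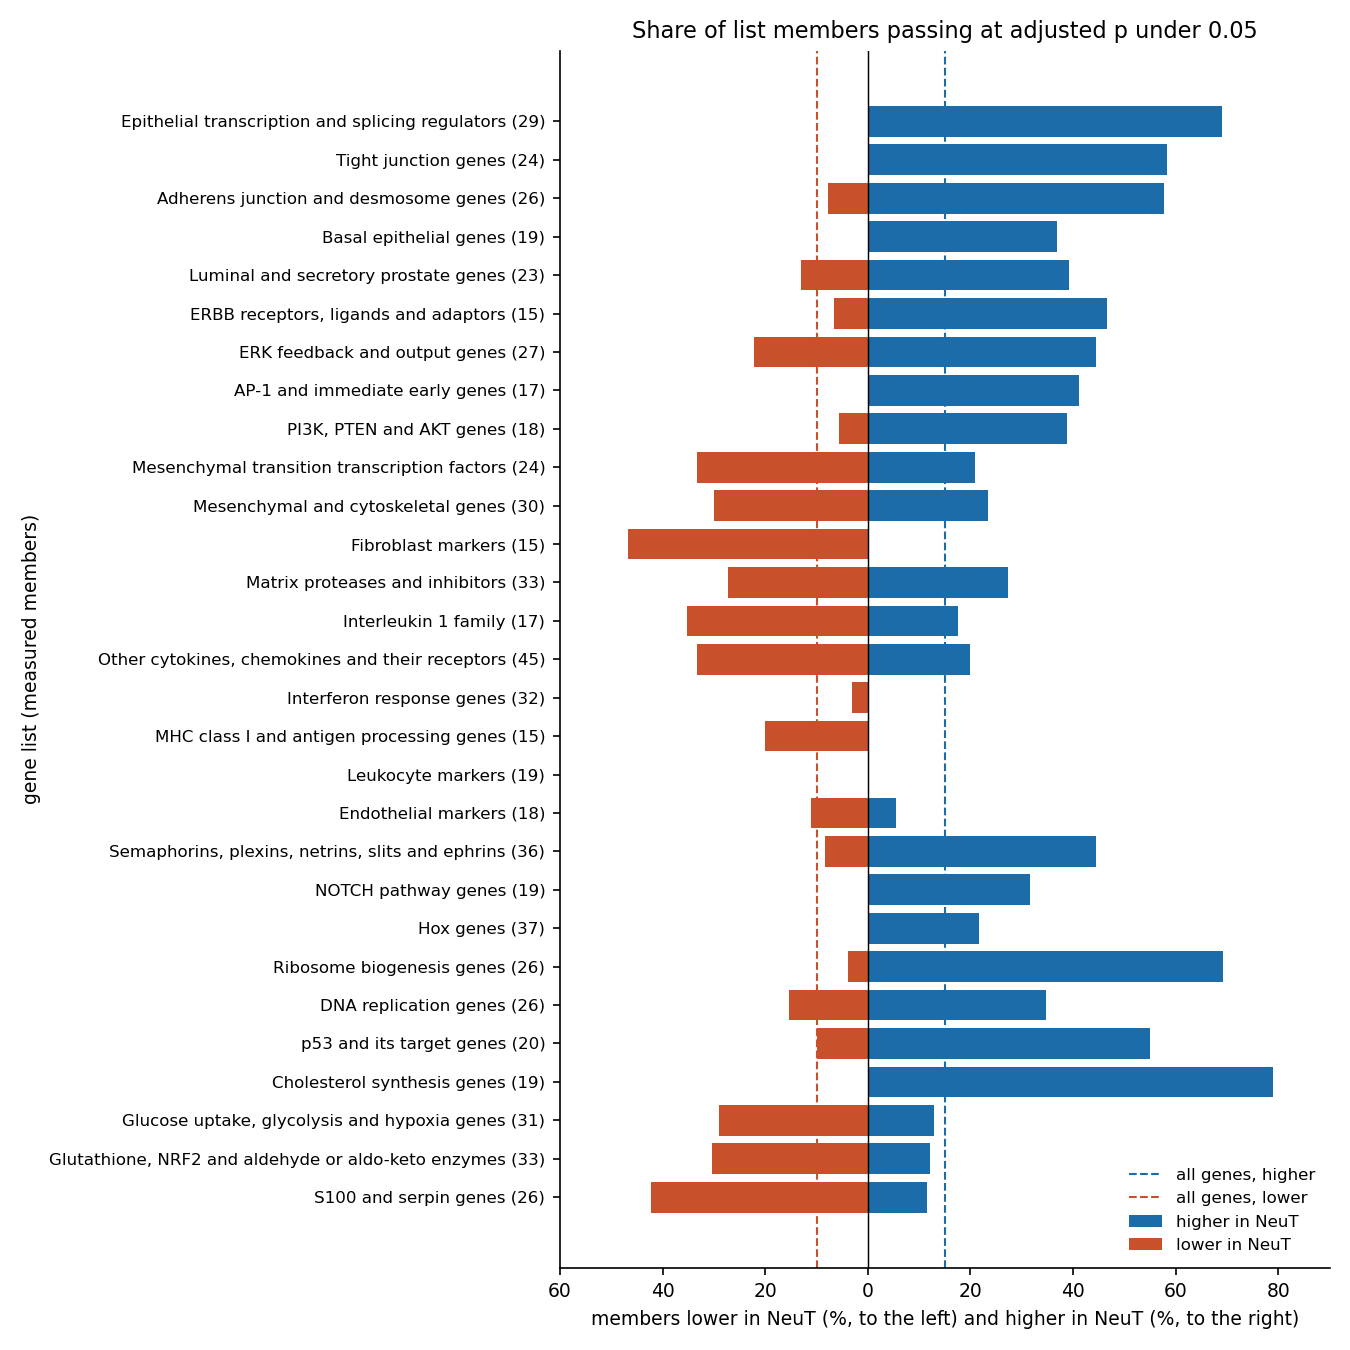
For 29 gene lists, blue bars to the right give the percent of measured members higher in NeuT and orange bars to the left the percent lower, at an adjusted p under 0.05. Dashed lines mark the shares over all genes, 15.1% higher and 9.98% lower. Cholesterol, ribosome biogenesis and epithelial lists reach furthest to the right, and the fibroblast list has members on the left only.

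Genes of miRNAs were read by 272 probe sets that hold the miRNA gene rather than a mature arm, so no value tells the 5p from the 3p arm. Among them 3 were higher and 24 lower in NeuT (9.93% passing against 25.1% of all genes, median -0.07). The mature sequences of those discussed are printed 5′ to 3′ from RefSeq (GRCm38.p6), with the seed, bases 2 to 8, in capitals, because members that share a seed share predicted targets.
miR-31-5p, chr4:88910614-88910635, minus strand: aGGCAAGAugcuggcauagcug
miR-196b-5p, chr6:52230129-52230150, minus strand: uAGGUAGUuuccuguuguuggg
miR-221-3p, chrX:19146307-19146329, minus strand: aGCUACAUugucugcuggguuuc
miR-222-3p, chrX:19146901-19146923, minus strand: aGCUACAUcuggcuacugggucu
miR-200c-3p, chr6:124718324-124718346, minus strand: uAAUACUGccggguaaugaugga
miR-141-3p, chr6:124717917-124717938, minus strand: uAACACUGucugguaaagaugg
miR-221 and miR-222 share the seed GCUACAU and lie close together on the X chromosome.

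Mir31, a miRNA gene of epithelial cells, was at 8.22, 7.85 and 7.92 in the NeuT arrays, against 6.08, 6.13 and 6.68 in the Ras arrays (1.70 ± 0.17, adjusted p = 0.000321). Every NeuT array was above every Ras array. It was the 1 miRNA gene called at least 2-fold higher in NeuT, and 6 were called lower. Of those, 3 named after their values were seen differed by more than Mir31. Mir350 was at 4.26, 4.0 and 3.77 in the NeuT arrays, against 6.83, 6.19 and 6.71 in the Ras arrays (-2.56 ± 0.19), Mir103-2 at 4.89, 4.63 and 4.93 in the NeuT arrays, against 6.99, 6.48 and 7.14 in the Ras arrays (-2.05 ± 0.17) and Mir15a at 6.27, 6.45 and 6.38 in the NeuT arrays, against 8.25, 8.34 and 8.16 in the Ras arrays (-1.88 ± 0.09). No NeuT array reached a Ras array in any of them. Mir196b, which lies in a Hox cluster, was also higher (0.82 ± 0.16, adjusted p = 0.00691). Mir221 was at 5.46, 4.93 and 4.96 in the NeuT arrays, against 6.0, 5.80 and 5.98 in the Ras arrays (-0.81 ± 0.15) and Mir222 at 5.11, 5.19 and 5.16 in the NeuT arrays, against 6.18, 5.58 and 6.35 in the Ras arrays (-0.89 ± 0.18). These neighbours were both lower in NeuT, with no overlap of arrays and at levels under the median of all values. The miR-200 genes, whose products target ZEB mRNAs, did not pass. Mir200c was at 6.08 ± 0.19 in NeuT and 6.07 ± 0.19 in Ras and Mir141 at 4.69 ± 0.13 in NeuT and 4.54 ± 0.14 in Ras (SD, n = 3 each, limma adjusted p = 0.975 and 0.397), and Mir200a and Mir200b differed by 0.12 ± 0.11 and -0.04 ± 0.13. All 4 were under the median level in both groups, and a difference between the lines was not detectable with these probe sets.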

How the data were processed

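Total RNA from cultured cells was amplified and labelled by the WT-Ovation Pico method and hybridised to Affymetrix arrays, 1 per sample, per the labels' protocols. The authors deposited log2 expression values made with RMA in Affymetrix Expression Console 1.1, per the submitters' processing notes, and no further normalization was applied here. Intensities, detection calls and array background were not used here, so depth in the sense of reads does not apply and the number of arrays limits the precision.

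Groups followed the sample titles. In the platform annotation 21797 probe sets carried 1 gene symbol, 1613 several and 12146 none, and 21706 were matched to current symbols by Entrez ID. Where a gene had several probe sets (999 genes), the brightest by mean level in all 15 arrays stood for it. The NeuT minus Ras difference was fitted in limma 3.58.1 (R 4.3.3, lmFit and eBayes) on 6 arrays, and again on 5 without Ras replicate 3. P-values were adjusted by Benjamini and Hochberg over all 21797 probe sets. Calls needed an adjusted p under 0.05 and a 2-fold difference; counts within gene lists used the adjusted p alone. The fit was tested on simulated data. Tables and figures were made in Python 3.11.15 with pandas 2.3.3.

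The comparison, its members and the gene lists were chosen with earlier results of these data known. Named by rule were the 15 highest and 15 lowest differences among genes called in both fits, at levels reaching the median of all values and with arrays that did not overlap, the transduced genes, the 5 or fewer list members with the smallest p, and the measured miRNA list; other genes are marked as named after their values were seen, except the cell type markers fixed with the design. Same-numbered arrays did not deviate together (correlations of -0.02, 0.02 and -0.07), so no pairing was used. Alternatives were 2 other normalizations, a filter on low values, averaging of probe sets, other variance models, array weights, fits on more groups, the replicate block and leaving out each array.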

Additional observations from a re-analysis of the deposited data

How the results depend on the processing

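Over the alternatives with the 2-fold minimum, called probe sets numbered between 1023 without dim probe sets and 1319 without Ras replicate 3, against 1265 as reported. Leaving out 1 array gave 1162 to 1319, with 650 to 758 higher and 512 to 629 lower in NeuT. With no fold minimum 5431 probe sets passed, 3217 higher and 2214 lower, and without Ras replicate 3 these counts were 5294, 3179 and 2115. Without Ras replicate 3 and without dim probe sets, 373 probe sets were lower in NeuT, where fewer were tested. Median centring gave 793 higher and 500 lower. The replicate number as a block gave 1281 called probe sets, 700 higher and 581 lower, although the numbers do not pair the arrays.

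Of 240 named genes that passed, 25 lost the call under at least 1 of these alternatives, among them Ereg and Npm1, and 0 changed sign. Of 55 list medians 27 moved by more than the spread between arrays without dim probe sets. Those turning sign among the lists described were mesenchymal genes (-0.13 to 0.69), neuronal genes (-0.06 to 0.85), cytokines (-0.20 to 0.02), proteases (-0.07 to 0.01) and haematopoietic genes (0.04 to -0.09). Basal genes moved to 1.55, luminal genes to 2.01, integrins to 0.63, oncofetal genes to -0.84, mesenchymal transition factors to -0.54 and endothelial markers to -0.57. The filter takes the mean over the compared arrays, so these medians cover fewer members, some kept only through the group where they are high. Leaving out NeuT array 2 left 0 mitosis genes and 1 replication gene lower in NeuT, and leaving out Ras array 2 made 5 oncofetal genes lower and 3 haematopoietic genes higher. Complement genes lower in NeuT numbered 1 without NeuT array 2 and 3 without Ras array 2, and endothelial markers without NeuT array 1 numbered 0 higher and 1 lower. With 3 arrays a group, differences near the spread between Ras arrays were not resolved, and signal over background was not measured.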

Other observations

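Probe sets with no gene or several genes in the annotation, 13759 in number, were fitted in the same way. Of these 991 (7.2%) were called at least 2-fold, 176 higher and 815 lower in NeuT, a lean to the lower side that single-gene probe sets did not share. Ras arrays also differed in how far each stood from its group. Ras array 3 was at least 2-fold above both others in 87 genes and below both in 26, Ras array 2 above in 28 and below in 87, and Ras array 1 above in 25 and below in 5. Whether these are traits of the lines or of the hybridisations was not tested.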
